A study of Mus musculus with 6 samples.

Results

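The genes described here are 10 members of the canonical WNT and beta-catenin pathway, namely Wnt3, Fzd7, Lgr5, Ctnnb1, Axin2, Tcf7l1, Tcf7l2, Tcf7, Lef1 and Sp5, and the measurement is where the zinc-finger protein SALL4 was found on the chromatin in and around them. They were chosen by name, out of 21887 protein-coding genes, and every SALL4 interval in the gene body or within 50 kb on either side was taken. The windows together span 1754.4 kb. They held 141 of the 55058 intervals of wild-type replicate 1 and 130 of the 48295 of wild-type replicate 2. They held 0 of the 34 and 0 of the 39 intervals of knockout replicates 1 and 2.

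The study mapped SALL4 by CUT&RUN, an assay that tethers a nuclease to an antibody inside permeable cells, so that fragments near the bound protein are released and can be sequenced. The cells were mouse embryonic stem cells grown in the medium called 2i with the cytokine LIF, and all were made permeable with digitonin at 0.02%. The wild-type line carries Sall4 flanked by recombination sites (genotype Sall4F/F) and the knockout line is Sall4-/-. Each line gave 2 SALL4 libraries, with antibody clone EE-30, and 1 sample titled IgG that was not analysed here, whose antibody entry names SALL4 under another catalogue number. Each genotype is a single line, and nothing in the labels says that the replicates are separate cultures, so the spread between them may be technical. Peak lists hold no expression values, so the labelled cell type was not checked against markers. At Sall4 itself, the same kind of window held 9 and 8 intervals in the wild-type lists and 0 in each knockout list.

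In the canonical pathway, a secreted WNT protein binds a Frizzled receptor and an LRP co-receptor at the cell surface. This stops the destruction complex, in which AXIN proteins and the kinase GSK3 mark beta-catenin for breakdown, and beta-catenin then joins TCF/LEF proteins on DNA to switch on targets such as Axin2 and Sp5. The 2i medium contains an inhibitor of GSK3, which raises beta-catenin in embryonic stem cells without added WNT, and relief of repression by TCF7L1 is the best known way in which this supports self-renewal.

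The promoter of Sp5 is shown first, because it was the only member promoter that lay under a SALL4 interval in both wild-type lists. Sp5 encodes an SP-family transcription factor and is a direct target of beta-catenin and TCF/LEF proteins. RefSeq promoter windows on GRCm38.p6, which run from 250 bases before to 50 bases after a start site, were matched for 9 of the 10 genes (15 windows), with no entry for Lgr5. The first sequence below is the 250 bases before the Sp5 start, on chromosome 2, chr2:70474673-70474922, plus strand. The second, shown for contrast, is the 237 bases before the Tcf7l2 gene, chr19:55741560-55741796, plus strand, whose promoter lay under an interval in 1 wild-type list only. Capitals mark a match to the TCF/LEF motif letters CTTTGAT.
Sp5: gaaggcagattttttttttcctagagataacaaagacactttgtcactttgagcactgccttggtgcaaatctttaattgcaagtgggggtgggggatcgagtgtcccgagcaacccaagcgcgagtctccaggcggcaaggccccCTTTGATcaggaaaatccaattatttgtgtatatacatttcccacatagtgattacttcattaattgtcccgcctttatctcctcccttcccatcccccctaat
Tcf7l2: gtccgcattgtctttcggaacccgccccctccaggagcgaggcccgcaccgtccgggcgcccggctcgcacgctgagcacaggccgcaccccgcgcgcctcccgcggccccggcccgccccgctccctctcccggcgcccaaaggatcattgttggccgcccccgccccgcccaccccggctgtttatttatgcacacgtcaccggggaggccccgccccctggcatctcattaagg

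At the Sp5 promoter, wild-type replicate 1 had an interval at chr2:70474585-70475113 with a fold enrichment of 20.83 and 40 fragments piled up at its summit. Replicate 2 had one at chr2:70474634-70475100 with a fold enrichment of 25.65 and 50 fragments. Fold enrichment, the authors' own value, is the summit signal relative to the background nearby, with 1 added to each. The local background was 0.968 and 0.988 fragments. The summits lay 8 and 19 bp after the start of Sp5, so the call was centred on the start site in both libraries, and it ranked 1870 and 629 by fold enrichment in the lists. At the Tcf7l2 promoter the interval of replicate 1 had a fold enrichment of 4.065 on 7 fragments, and replicate 2 had none. An internal start of Lef1 lay under an interval of replicate 2 alone, with a fold enrichment of 4.08 on 5 fragments. By fold enrichment these ranked 46371 of 55058 and 36882 of 48295, in the weaker part of each list. Overlap of a promoter window with a region called in both wild-type lists was found for 1 of 9 member genes, beside 3.87% of the coding genes with such a window.

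The motif letters CTTTGAT, together with CTTTGAA, which TCF/LEF proteins are known to bind, were searched on both strands. So were the AT-rich motifs spelled AATATT, followed by ATATTA, followed by TATTAA, of the kind read by the zinc fingers near the end of SALL4. The AT-rich motifs can overlap one another. The Sp5 window held 1 TCF/LEF match, CTTTGAT at bases -104 to -98 before the start, and no AT-rich match. Of the other 14 member windows, none held a TCF/LEF match and 1, at an internal start of Tcf7l2, held TATTAA. Over all 32851 windows, either TCF/LEF motif was present in 8.65% and any AT-rich motif in 15.6%, so 1 TCF/LEF match in 15 member windows is near the background. Among the 1025 windows that overlapped a consensus region these shares were 11.6% and 13.5%, and among the remaining 31826 they were 8.56% and 15.7%. The TCF/LEF spellings differed, with CTTTGAT in 7.02% of the former and 3.62% of the latter windows, and CTTTGAA in 4.88% and 5.14%. The A+T content of the 250 bases shown for Sp5 was 54.0%, the median of all 300-base windows was 47.3%, and in the windows at the first start of the other members it ranged from 23.7% to 34.3%. Internal starts reached values as high as that of Sp5, with 58.0% at Tcf7l2 and 56.3% at Lef1. A match is a description of the letters only.

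Counts of intervals were compared between the genotypes across all 10 genes together. The totals of 141 and 130 in wild type gave a mean of 135.5 ± 7.78 (SD, n = 2), and the knockout lists held 0 and 0. The groups did not overlap, and no fold is given against lists at 0. The exact permutation test over the 4 libraries (two-sided) returned p = 0.333, which no design with 2 libraries against 2 can go below. Intervals in the window of a coding gene were found for 75.9% and 73.3% of coding genes in wild-type replicates 1 and 2, and for 0.00914% in each knockout list. The absence of knockout intervals is therefore what nearly every coding gene showed and is not particular to WNT genes.

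**Figure D1:**
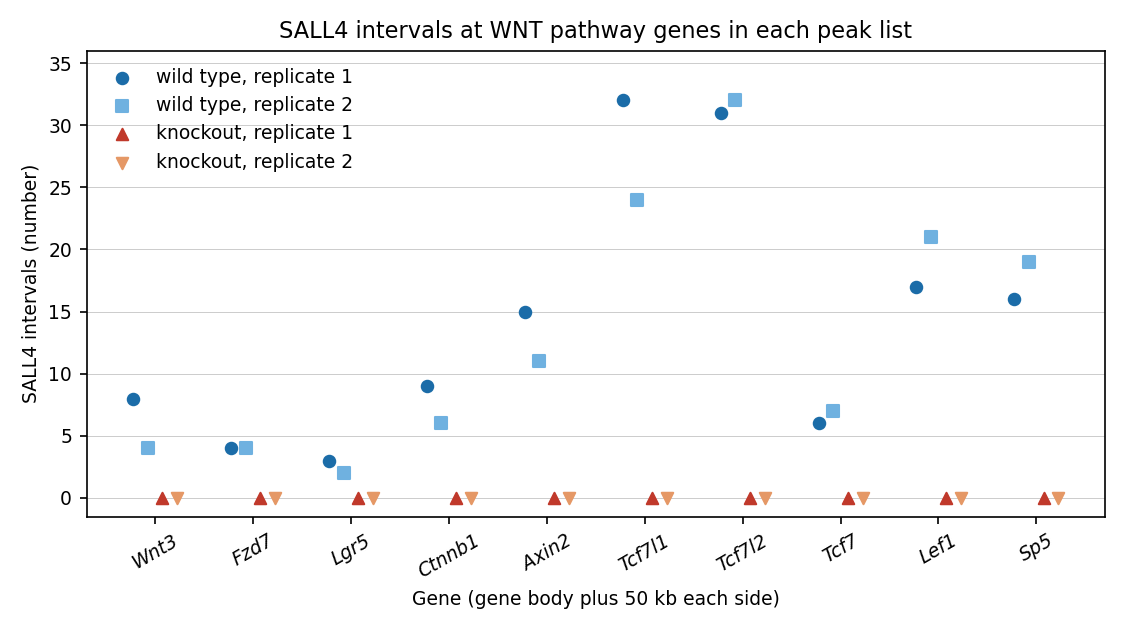
Number of SALL4 intervals (vertical axis) in the gene body plus 50 kb each side of the 10 genes (horizontal axis), with 1 point for each of the 4 peak lists. All knockout points lie at 0, and the wild-type points run from 2 at Lgr5 to 32 at Tcf7l1 and Tcf7l2.

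A consensus region was defined as a region called in both wild-type lists, with an overlap of at least 1 bp, that overlapped no knockout interval. The 10 windows held 96 of the 37997 consensus regions, and every member had at least 1, as did 68.7% of coding genes. Since the windows differ in length, density was also used. The median was 5.003 consensus regions per 100 kb over the members and 0.970 over all coding genes, and 9 of the 10 members lay above the latter. In the densest 10% of coding genes (at least 4.80 per 100 kb) were 5 members, namely Sp5 with 12.65, Tcf7l1 with 7.61, Tcf7l2 with 7.20, Axin2 with 6.77 and Lef1 with 6.07. The other 5 were Ctnnb1 with 3.93, Fzd7 with 3.82, Tcf7 with 3.65, Wnt3 with 2.78 and Lgr5 with 0.842 per 100 kb. No test was made of this order or of the difference from all coding genes, as the members are a list chosen by name with earlier results of these data known.

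**Figure D2:**
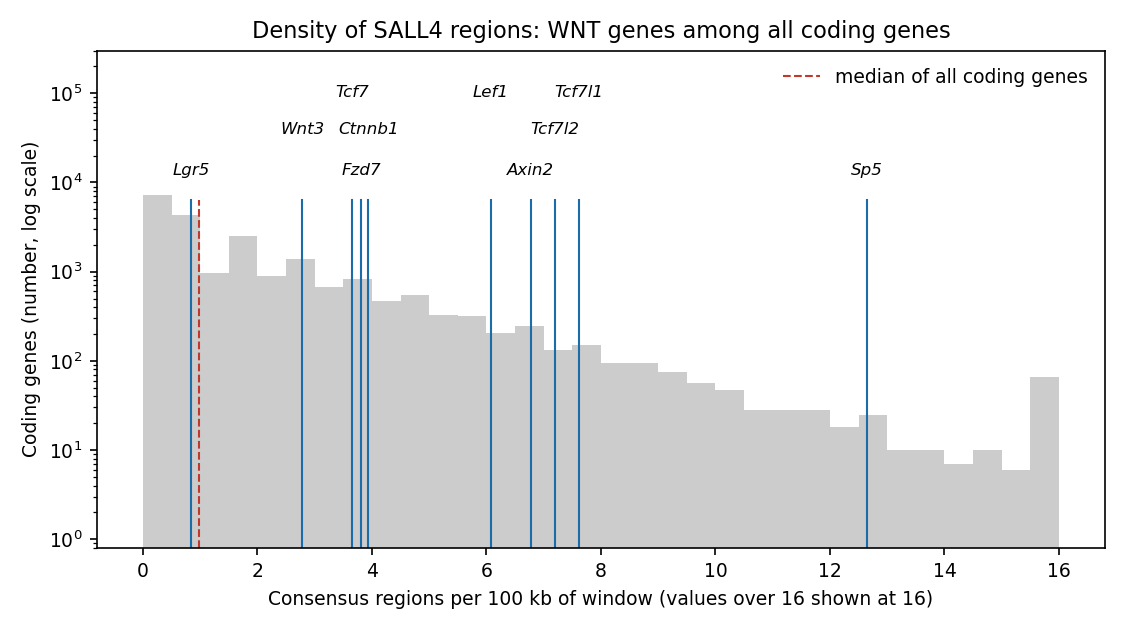
Distribution of consensus regions per 100 kb of window (horizontal axis) over all coding genes (vertical axis, number on a log scale), with the 10 WNT genes as blue lines and the median of all coding genes as a dashed red line. Sp5 lies farthest to the right of the members at 12.65, and Lgr5, at 0.842, is the member below the median.

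Wnt3 encodes the WNT ligand that is known for its part in forming the primitive streak of the embryo. Its window on chromosome 11 (gene at 103774175 to 103818021) held 8 and 4 intervals in the wild-type lists. All 4 consensus regions lay beyond the end of Wnt3 and inside the neighbouring gene Nsf, 50.9 kb or more from the Wnt3 start. Inside Wnt3 there were 2 intervals of replicate 1 and none of replicate 2. The strongest region, at 103827210 to 103827425, gave fold enrichments of 8.15 in replicate 1 and 9.27 in replicate 2.

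Fzd7 encodes a Frizzled receptor, the one best known for carrying WNT signals in embryonic stem cells. Its window on chromosome 1 (gene at 59482147 to 59486955) held 4 intervals in each wild-type list, and all 4 were shared. None lay in the gene. The nearest to its start was 9.73 kb before it, at 59472259 to 59472533, with fold enrichments of 5.45 and 6.67. The strongest, at 59520238 to 59520633 inside the gene Gm973, had fold enrichments of 15.2 and 12.9 on 21 and 18 fragments.

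Lgr5 encodes a receptor for R-spondins, which strengthen WNT signals, and is widely used as a stem cell marker. Its window on chromosome 10 (gene at 115450314 to 115587780) was the sparsest, with 3 and 2 intervals. Both consensus regions lay inside the gene, 5.97 kb apart. They had fold enrichments of 13.1 and 11.6 at 115474839 to 115475403, and of 11.2 and 10.1 at 115469083 to 115469466. These are few but not weak regions, since their lowest value exceeds the median of 6.80 over all member regions.

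Ctnnb1 encodes beta-catenin, the protein that carries the signal into the nucleus. Its window on chromosome 9 (gene at 120933400 to 120960507) held 9 and 6 intervals and 5 consensus regions, none of which lay in the gene. The region nearest to the start, at 120930881 to 120931227, had its summit 2.32 kb before it, with fold enrichments of 8.86 and 7.73 on 25 and 22 fragments. The strongest region of all 10 windows by replicate 1 lay here, at 120981342 to 120981838, with fold enrichments of 33.6 and 27.3 on 49 and 40 fragments and ranks of 175 and 442. It lay 48.2 kb after the Ctnnb1 start, inside the gene Ulk4 and the non-coding gene Gm34945, so the window assigns it to Ctnnb1 while the nearest coding gene is Ulk4.

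Axin2 encodes a scaffold of the destruction complex and is itself a target, which makes it a negative feedback on the pathway. Its window on chromosome 11 (gene at 108917828 to 108950783) held 15 and 11 intervals and 9 consensus regions. It contains no other coding gene body with a consensus summit, although 4 of the regions lay in the non-coding gene Gm46298. Inside Axin2 there were 2 regions. The one nearest to the start, 2.73 kb after it at 108922994 to 108923179, had fold enrichments of 9.52 and 4.38, or 6.95 ± 3.64 (SD, n = 2), so the replicates differ widely there. The strongest regions flanked the gene. At 108961511 to 108962113, after its end, the fold enrichments were 23.4 and 20.7, and at 108892682 to 108893551, before its start, they were 19.7 and 20.1. A group of 3 summits within 3.83 kb surrounded the first of these.

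The TCF/LEF genes encode the DNA-binding partners of beta-catenin. TCF7L1 acts chiefly as a repressor in embryonic stem cells, and TCF7, LEF1 and TCF7L2 are better known as activators once beta-catenin is bound. Their windows held 59 of the 96 consensus regions, which is 61.5%, in 51.6% of the window length of the members, with 20 at Tcf7l1, 21 at Tcf7l2, 5 at Tcf7 and 13 at Lef1.

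Tcf7l1 (chromosome 6, 72626371 to 72789045, minus strand) had 32 and 24 intervals in the wild-type lists. Of its 20 consensus regions, 18 lay inside the gene. The region nearest to its start, at 72787412 to 72787715, had its summit 1.46 kb inside the gene, with fold enrichments of 9.65 and 6.25. The strongest, at 72758436 to 72758810, had fold enrichments of 20.8 and 19.2 on 30 and 28 fragments, 30.4 kb inside. Regions were crowded there, and 5 summits fell within 9.65 kb. Of the 11 intervals that replicate 1 alone held, all 11 lay inside the gene, and the highest fold enrichment among them was 6.94.

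Tcf7l2 (chromosome 19, 55741797 to 55933659, plus strand) had 31 and 32 intervals. Inside the gene lay 18 of its 21 consensus regions. The strongest, at 55788300 to 55788547, had fold enrichments of 25.7 and 20.01 on 37 and 29 fragments, 46.6 kb after the first start. A run of 6 summits followed within 9.09 kb, from 55792133 to 55801462. The next strongest lay 144.9 kb after the start, at 55886483 to 55887315, where the fold enrichments reached 15.2 and 14.96. Nearest to the first start was a region with its summit 4.81 kb inside the gene, at 55746451 to 55746804, with fold enrichments of 8.11 and 8.67. Each list also held 10 intervals here that the other list lacked, and their fold enrichments reached 6.72 in replicate 1 and 7.48 in replicate 2.

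Tcf7 (chromosome 11, 52246527 to 52283383, minus strand) differed from these, with 6 and 7 intervals and no consensus region inside the gene. Beyond its end lay 4 of its 5 consensus regions, with 3 summits inside the gene Skp1. Before its start lay 1 region, at 52300571 to 52300947. It was the strongest of the window, with fold enrichments of 13.4 and 8.61, and its summit was 17.8 kb from the first listed start.

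Lef1 (chromosome 3, 131110297 to 131224357, plus strand) had 17 and 21 intervals. Its 13 consensus regions were divided into 4 before the start, 8 inside the gene and 1 after its end. The strongest lay before the start, 25.4 kb away, at 131083766 to 131085094. It is 1329 bp wide, the widest of the 96, and had fold enrichments of 17.8 and 16.6 on 34 and 32 fragments. The region nearest to the start, 4.37 kb before it at 131105826 to 131106108, had fold enrichments of 5.08 and 8.43. Inside the gene the highest values were 12.4 and 12.9, at 131137057 to 131137488.

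Sp5 is a gene of 2.804 kb on chromosome 2 (70474923 to 70477726, plus strand), and its window of 102.8 kb was the shortest. It nevertheless held 16 and 19 intervals and 13 consensus regions. Only 0.594% of coding genes had a density as high or higher. Sp5 was the nearest coding gene for 9 of the 13 regions. The others lay nearer to Myo3b or Erich2, and 1 of them was inside Erich2. The strongest region lay 10.1 kb after the start, at 70484571 to 70485411, with fold enrichments of 31.7 and 29.2 on 45 and 42 fragments and ranks of 268 and 322. Next came the region over the start site described above, and then one 31.0 kb before the start, at 70443224 to 70444211, with fold enrichments of 16.8 and 20.6. The nearest coding gene to the latter was Myo3b. From 3.63 kb before the start to 0.778 kb after it there were 4 summits. The consensus regions covered 5.07% of the window, against 0.400% at Lgr5 and 2.67% at Tcf7l1, the next highest.

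**Figure D3:**
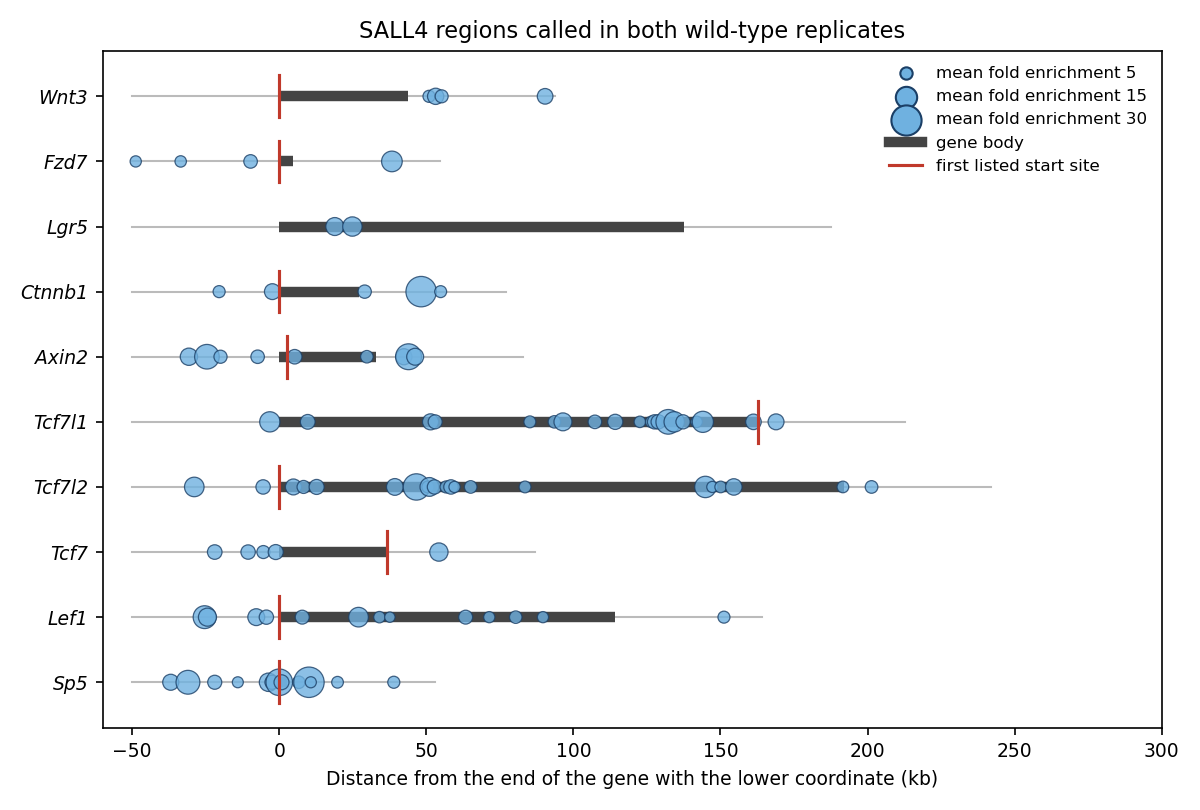
Position of the 96 consensus regions at the 10 genes, as the distance in kb from the end of the gene with the lower coordinate (horizontal axis). Bars are gene bodies, thin lines the 50 kb on either side, red ticks the first listed start site, and circle area is the mean fold enrichment. Regions lie mostly inside the gene at Tcf7l1 and Tcf7l2 and outside it at Wnt3, Fzd7, Ctnnb1 and Tcf7, and 1 of the 13 at Sp5 lies over the start.

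Positions were then summarised over the members. Inside the member gene lay 50 of the 96 summits, which is 52.1% (95% Wilson interval 42.2 to 61.8, counting error only), and gene bodies made up 43.0% of the windows. The direction of this difference depended on the q-value limit, since with −log10 q held to 10 or more 40.7% of summits lay inside. The share of 52.1% rested largely on Tcf7l1 and Tcf7l2, with 18 inside summits each. The interval does not allow for such grouping by gene. Of the 96 summits, 23 lay before the start and 23 after the end. A consensus region overlapped the gene body in 6 of 10 members, beside 27.6% of coding genes. These 6 were Lgr5, Axin2, Tcf7l1, Tcf7l2, Lef1 and Sp5. The member was the nearest coding gene for 79 of the 96 summits, and 12 lay inside another coding gene. Windows that reach only 50 kb from a gene favour that gene as the nearest. No such share over other coding genes is given here, so the 79 are a description only. Start sites with a summit within 10 kb numbered 7 of 9, beside 26.5% of coding genes. Within 5 kb there were 6 of 9, beside 17.7%, and within 1 kb there was 1 of 9, Sp5, beside 6.22%. The distances are to the nearest listed start of a gene, and for Tcf7l2 that was an internal one.

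Strength did not set the member regions apart. The median of the mean fold enrichment was 6.80 over the 96 regions and 6.84 over all consensus regions, and the median width was 299 and 327 bp. Of the 96, 10 (10.4%) ranked within the best 10% of all consensus regions by the worse of their ranks. Only the strongest regions at Ctnnb1 and Sp5 ranked within the first 1000 of both lists, which is 2.08% of the member regions and 1.89% of all. A region with a fold enrichment of at least 10 in both lists was present at 8 of 10 members, beside 31.0% of coding genes, and Wnt3 and Tcf7 had none. This count also depends on the number of regions in a window, with a median of 7 at the members and 1 over all coding genes.

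**Figure D4:**
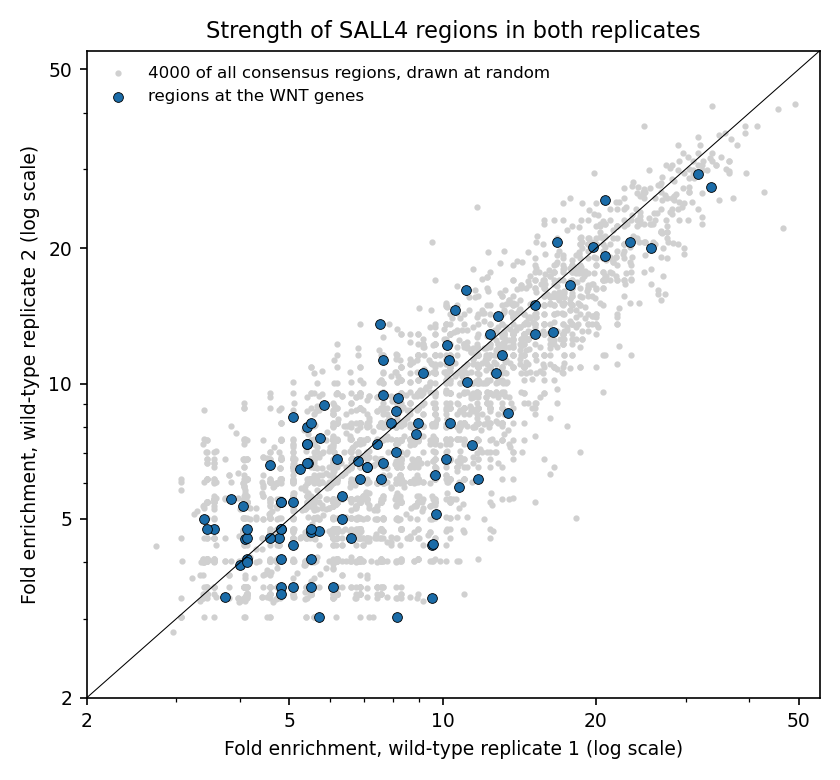
Fold enrichment of consensus regions in wild-type replicate 1 (horizontal axis) and replicate 2 (vertical axis), both on log scales, for the 96 regions at the WNT genes (blue) and 4000 of all consensus regions (grey), with the line of equal values. The blue points spread over the same range as the grey ones up to 33.6.

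Agreement of the replicates at the members was near that of the lists as a whole. Replicate 2 contained 98 of the 141 member intervals of replicate 1, or 69.5% (Wilson 95% bounds 61.5 and 76.5), beside 70.4% over that whole list. In the other direction it was 97 of 130, or 74.6% (66.5 and 81.3), beside 79.3%. Shared intervals had a median fold enrichment of 6.93 in replicate 1 and 6.58 in replicate 2. For unshared intervals the medians were 4.57 and 4.53, and none exceeded 7.71. Summit pileups at the members ranged from 4 to 49 and from 4 to 50 fragments, with a median of 8 in each list, so a typical single call rests on few fragments. Across the 96 regions the fold enrichments of the replicates gave Spearman's rho of 0.722, beside 0.771 over all consensus regions, and, after taking log2, Pearson's r of 0.816 at the members. This is a correlation across regions of the same 2 libraries, which are not independent replicates.

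A wider list of 75 other WNT pathway genes was examined in the same windows. Consensus regions were present at 61 of the 75, which is 81.3%, beside 68.7% of coding genes, and none of the 75 had a knockout interval. With −log10 q held to 10 or more, the count was 38 of the 75, or 50.7%, beside 39.5% of coding genes. The median density was 1.64 per 100 kb, above the 0.970 of all coding genes and below the 5.003 of the 10 members. By role, regions were present at 19 of 24 ligands and their partners, 14 of 16 receptors, 6 of 10 transducers, 15 of 16 inhibitors and 7 of 9 nuclear cofactors. The median densities of these groups were 0.829, 2.61, 1.65, 2.25 and 1.55 per 100 kb. The ligand group was the one with a median below that of all coding genes.

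The listed genes with the highest density were Porcn, which encodes the enzyme that attaches a lipid to WNT proteins, Dvl3, a Dishevelled protein that passes the signal on from the receptor, and Tle4, a co-repressor that binds TCF/LEF proteins. Porcn had 14 and 14 intervals in the wild-type lists and 9.76 consensus regions per 100 kb. Dvl3 had 18 and 14 intervals and 9.40 per 100 kb. None of the 11 consensus regions of either gene overlapped the gene itself. Tle4 had 32 and 23 intervals and 18 consensus regions, 12 of them in the gene, at 7.20 per 100 kb. The most regions were found at Znrf3, which encodes a membrane ubiquitin ligase that removes Frizzled receptors, with 35 and 27 intervals and 19 consensus regions. Tle4 followed, and then Ror2, a WNT5A receptor, with 23 and 20 intervals and 15 consensus regions.

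A promoter window overlapped a consensus region at 4 of the 75 genes, beside 3.87% of the coding genes with such a window, so the count is near the background. These were Tle4, with fold enrichments of 12.2 and 9.05, Lgr4, with 10.2 and 9.56, Wnt5b, at an internal start, with 8.17 and 11.3, and Gsk3b, with 4.19 and 5.79. LGR4 is a receptor for R-spondins, and Gsk3b encodes one of the kinases that the medium inhibits. The values at all 4 lay below the 20.83 and 25.65 measured at the Sp5 promoter in the same lists.

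**Figure D5:**
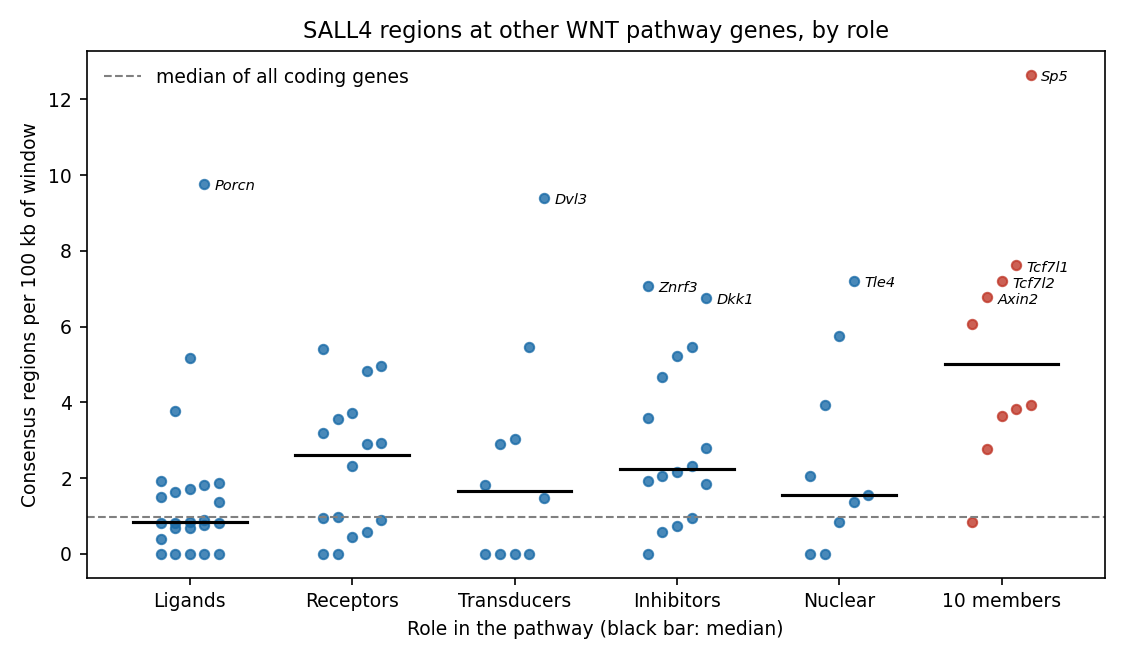
Consensus regions per 100 kb of window (vertical axis) for 75 other WNT pathway genes grouped by role (blue) and the 10 members (red), with black bars as medians and a dashed line for the median of all coding genes. The ligand group has a median of 0.829 and the 10 members have a median of 5.003.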

How the data were processed

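Each SALL4 sample has 1 deposited peak list of its own in the 10-column narrowPeak layout. The submitters' processing notes name Trim Galore 0.6.0, cutadapt 1.18, FastQC 0.11.8, BWA 0.7.17 and MACS2 2.1.1.20160309 and the builds GRCm38 and mm10, and the control and filters are not given in the sources used here. In the deposited columns, fold enrichment is the ratio of pileup over local background at the summit, with 1 added to each. The deposited −log10 values give p-value and q-value at that position, and the deposited score repeats the latter as 10 times the −log10 q-value without its decimals. Fold enrichments are the authors' values and rank regions within a list only.

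Overlapping lines of a list were merged, keeping the highest fold enrichment. Read totals are not in the lists. The whole number of fragments at each summit was recovered from fold enrichment (pseudocount 1) and Poisson p, within 0.0001 in −log10 p, for 100% of the intervals at the members. Gene positions are those of the RefSeq table for GRCm38.p6, and start sites and sequences come from its promoter windows. The genome sequence was not used here, so sequence under other regions was not examined. Groups come from the sample titles. Named at each gene were its strongest region by the worse of the 2 ranks, the region nearest to its start and any knockout interval; of the wider list, the 3 genes highest in density, the 3 highest in number, and those without a region only where 5 or fewer. Other regions and genes named, including those with promoter overlap, were singled out after their values were seen. The members and the lists were chosen with earlier results of these data known. The counting steps and the recovery were tested on simulated data. Python 3.11.15, numpy 2.4.6, scipy 1.17.1, pandas 2.3.3 and matplotlib 3.10.9 were used.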

Additional observations from a re-analysis of the deposited data

How the results depend on the processing

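With stricter limits there were fewer regions by construction. With −log10 q held to 10 or more, the members had 27 consensus regions (1.46 per 100 kb at the median, 40.7% of summits inside the gene), and 38 listed pathway genes had one (50.7%, beside 39.5% of coding genes). At a fold enrichment of at least 10 the values were 21 regions, 1.16 per 100 kb and 29 listed genes (38.7% beside 31.0%), and 82.6% of member intervals were found in the other replicate, against 72.1% on average in the main analysis. In gene bodies alone there were 50 regions at 6 members, a median of 3.76 per 100 kb, and 31 listed genes (41.3% beside 27.6%). In these 3 settings the median density over all coding genes was 0. With 10 kb each side the median density was 5.85, again beside 0 over all coding genes, and the share found in the other replicate 76.0%. A reciprocal overlap of at least 50% gave 58.4%, a density of 4.31 and 50.6% of summits inside the gene, and summits within 100 bp gave 60.6%, 4.24 and 52.4%. The medians over all coding genes were 0.927 and 0.923 in these overlap settings. Using 1 wild-type list at a time, the median density ranged from 6.69 to 7.51, beside 1.48 to 1.75 over all coding genes. The share inside then ranged from 50% to 50.4%. As both knockout lists hold 0 member intervals, no alternative could turn the direction of the difference between genotypes, and its constancy says nothing about stability. A replicate block, pairing same-numbered libraries, gave a difference of 7.09 in log2(number + 1), whose size depends on the added 1, and the exact sign-flip test gave p = 0.5, below which 2 pairs cannot go. The share found in the other replicate needs both wild-type lists. Whether the numbers pair the libraries was not tested. Counting only regions nearest to the member (79) or wholly inside the window (96) were alternatives chosen after seeing the data. The median member summit rests on 8 fragments, and the effect of depth on weak calls was not tested.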
